A study of Mus musculus with 6 samples.

Results

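The EGR factors and their NAB corepressors were followed here as a group of 5 genes, Egr1, Egr2, Egr3, Nab1 and Nab2, out of 55416 genes in the count files, chosen by name and matched by Ensembl identifier. RNA was sequenced from spleen T cells that had been purified by CD3, a chain set that carries the signal of the T cell receptor, from wild-type C57BL/6 mice carrying a graft. In 3 libraries the mice had received an allograft, from a genetically different donor, and in 3 an isograft, from a genetically identical donor. After purification the cells of both groups were held in serum-containing medium at body temperature for a time not given in the sources used here, and the organ grafted, the donor strain, the ages and the time after grafting are not given either. The labels leave unsaid whether each library is its own mouse, and a p-value here is set against variation among libraries that could be technical.

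EGR proteins are zinc finger transcription factors of the early growth response family. Their genes are immediate early genes, switched on within the first wave of transcription after a receptor signal without need of new protein, largely through the Ras-ERK cascade and serum response factor, and in T cells also through calcium, calcineurin and NFAT. All EGR family members recognise nearly the same GC-rich DNA site. In T cells EGR1 is linked to activation and thymic selection, while EGR2 and EGR3 are linked to the restraint of activated cells, anergy and tolerance as well as to proliferation. NAB1 and NAB2 do not bind DNA themselves: they attach to EGR1, EGR2 or EGR3 and repress, in part by bringing in the NuRD chromatin remodelling and deacetylase complex through its CHD4 subunit, and Nab2 is known as a gene that EGR factors switch on, which closes a feedback loop.

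RefSeq promoter windows (GRCm38.p6, 300 bases, of which 50 follow the annotated start) were found for 3 of the 5 genes, Egr2, Nab1 and Nab2, and are shown because the 5 genes moved together and because EGR and serum response factor sites are known to link them. Only the 250 bases before a start are printed, 5′ to 3′ on the gene's strand, with matches to 3 motifs in capitals. The motifs, searched on both strands, were the EGR site GCGNGGGCG, whose letters overlap those of the GC box bound by SP1, the cyclic AMP response element TGACGTCA, and the CArG box, which serum response factor binds.
Egr2 (chr10:67537619-67537868, plus strand): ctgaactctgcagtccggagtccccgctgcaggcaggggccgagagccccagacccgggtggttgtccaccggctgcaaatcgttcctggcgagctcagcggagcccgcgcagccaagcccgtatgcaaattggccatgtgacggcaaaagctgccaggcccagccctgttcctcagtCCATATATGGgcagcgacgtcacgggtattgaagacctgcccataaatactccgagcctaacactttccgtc
Nab1 (chr1:52500449-52500698, minus strand): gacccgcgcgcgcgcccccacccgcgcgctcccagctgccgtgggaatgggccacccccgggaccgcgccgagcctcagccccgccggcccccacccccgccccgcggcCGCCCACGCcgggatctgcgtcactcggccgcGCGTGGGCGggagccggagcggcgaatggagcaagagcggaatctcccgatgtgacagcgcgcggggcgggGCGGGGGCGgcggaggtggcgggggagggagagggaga
Nab2 (chr10:127666704-127666953, minus strand): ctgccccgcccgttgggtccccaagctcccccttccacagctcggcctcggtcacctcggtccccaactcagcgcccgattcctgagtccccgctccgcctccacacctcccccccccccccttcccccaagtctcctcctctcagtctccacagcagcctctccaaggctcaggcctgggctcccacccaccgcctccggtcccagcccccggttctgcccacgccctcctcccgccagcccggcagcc

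The Egr2 window above belongs to 1 of 5 annotated starts and held 1 CArG box, CCATATATGG, at positions -72 to -63, counted from -1 at the last base before the start. The windows of 2 neighbouring starts held this same box, another start further upstream had a different one, CCTTTTTTGG, and the fifth window had none. A CArG box occurred in 1.63% of the 32851 promoter windows in the table. The Nab1 window held 3 EGR sites, at -141 to -133 on the opposite strand (read as CGCCCACGC), at -109 to -101 (GCGTGGGCG) and at -38 to -30 (GCGGGGGCG). At least 1 EGR site was present in 5.55% of all windows and 3 or more in 0.195%. The Nab2 window held none of the 3 motifs. Its start, at 127666703 on the minus strand, lies inside the gene's GRCm38 interval of 127660918 to 127668568. The sequence before the outer 5′ end of Nab2 was therefore not searched. No cyclic AMP response element, found in 1.79% of all windows, was present in the windows of these genes. These matches describe letters in short windows and were not tested for binding.

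**Figure D1:**
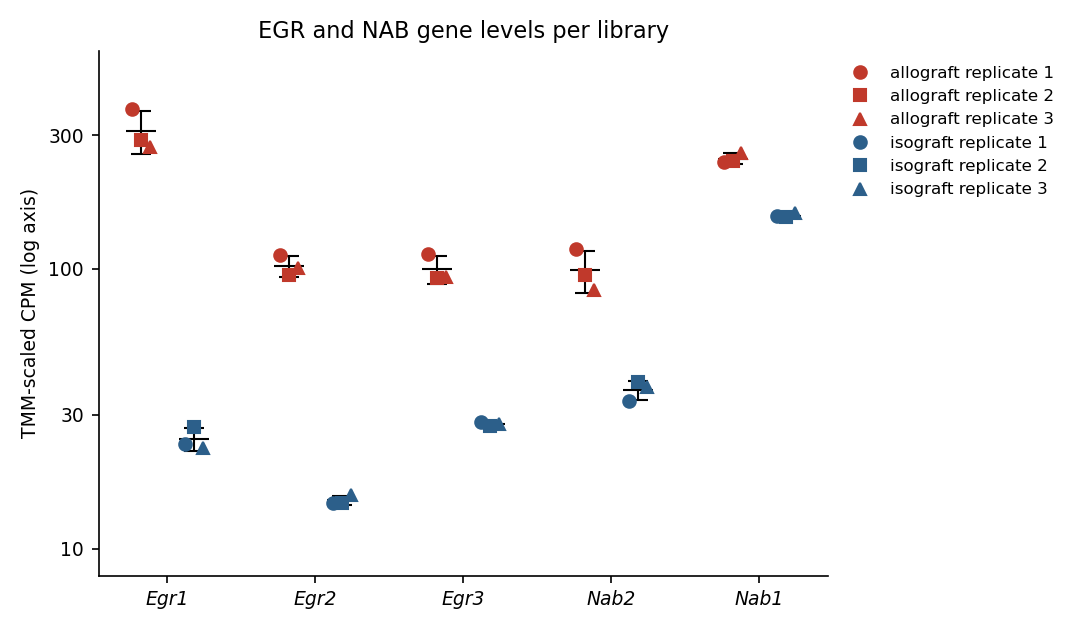
Levels of the EGR and NAB genes in each library, as TMM-scaled CPM on a log axis, with allograft libraries in red left of isograft libraries in blue, the mean as a bar and the SD as whiskers (n = 3 each). Allograft and isograft libraries do not overlap for any of the 5 genes, and the gap is widest for Egr1 and narrowest for Nab1.

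All 5 genes were higher in allograft libraries, in a graded order: Egr1 by about 12.6-fold, Egr2 by 6.88-fold, Egr3 by 3.57-fold, Nab2 by 2.69-fold and Nab1 by 1.60-fold. All 5 passed the filter on low counts, all 5 were called higher by edgeR's quasi-likelihood test at an adjusted p under 0.05 over all genes, and in all 5 the groups did not overlap. Among the 14926 genes tested, 28.7% were called higher, 29.1% were called lower, and 63.3% showed no overlap between the groups, so that non-overlap was the common case. Levels within genes are given as CPM, TMM-scaled counts relative to library size (trimmed mean of M values), and a fold change is allograft over isograft. The members are read against a broad shift in which most genes moved, and their places in it differed: Egr1 had the 45th largest rise, Egr2 the 123rd, Egr3 the 448th, Nab2 the 843rd and Nab1 the 2727th.

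Egr1 encodes the founding factor of the family, also known as Krox-24 or Zif268 (ENSMUSG00000038418, chromosome 18, 34992876 to 34998037, plus strand, GRCm39). Its level was 372, 288 and 272 CPM in allograft replicates 1, 2 and 3, against 23.6, 27.2 and 22.9 CPM in isograft replicates 1, 2 and 3. The groups were far apart, and allograft replicate 1 was the highest of its group. The log2 fold change was 3.66 ± 0.12 (SE; 95% interval 3.40 to 3.92; edgeR adjusted p = 3.5e-12), and 3.50 without allograft replicate 1.

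Egr2, or Krox-20, is known in T cells for its part in anergy and in the restraint of effector cells (ENSMUSG00000037868, chromosome 10, 67371305 to 67378018, plus strand). It stood at 111.6, 94.5 and 100.6 CPM in allograft replicates 1, 2 and 3 and at 14.5, 14.5 and 15.5 CPM in isograft replicates 1, 2 and 3. Both groups were tight, with 102.2 ± 8.68 CPM in allograft and 14.9 ± 0.581 CPM in isograft libraries (SD, n = 3 each). The log2 fold change was 2.78 ± 0.09 (95% interval 2.60 to 2.97; edgeR adjusted p = 4.1e-15).

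Egr3, the close partner of Egr2 known to act with it in restraining lymphocytes (ENSMUSG00000033730, chromosome 14, 70314652 to 70320063, plus strand), had 112.4, 92.3 and 93.6 CPM in allograft replicates 1, 2 and 3. In isograft replicates 1, 2 and 3 it had 28.4, 27.4 and 27.9 CPM. Its isograft level was the highest of the 3 EGR genes, and its rise was the smallest, with a log2 fold change of 1.84 ± 0.09 (95% interval 1.66 to 2.02; edgeR adjusted p = 8.1e-13). The intervals of Egr1, Egr2 and Egr3 did not touch one another.

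The fourth family gene, Egr4, known mainly from neurons and the germ line, was near absent. It had 3, 6 and 10 counts in allograft replicates 1, 2 and 3 and 0 in every isograft library, where a count of 0 over the group allows up to 0.0284 CPM. It fell below the filter on low counts and was not tested. Wt1, which encodes another zinc finger factor that can bind EGR sites, had at most 2 counts in any library.

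Nab2, the inducible corepressor (ENSMUSG00000025402, chromosome 10, 127496787 to 127504437, minus strand), had 117.2, 95.1 and 84.2 CPM in allograft replicates 1, 2 and 3 and 33.5, 39.2 and 37.7 CPM in isograft replicates 1, 2 and 3. The groups were apart, but Nab2 had the widest relative spread of the 5 genes among allograft libraries together with Egr1: 98.8 ± 16.8 CPM for Nab2 and 310.8 ± 53.9 CPM for Egr1 (SD, n = 3). The log2 fold change of Nab2 was 1.42 ± 0.11 (95% interval 1.20 to 1.65; edgeR adjusted p = 7.5e-09). Its level is an undercount of uncertain size, because 1241 of its 2941 exon bases (42.2%) are shared with exons of 3 genes on the opposite strand, Gm16229, Nemp1 and Stat6, and the counting did not use strand. Gm16229, which covers 1050 of those bases, was itself counted 0 to 7 times per library.

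Nab1, the corepressor expressed steadily in many tissues (ENSMUSG00000002881, chromosome 1, 52496453 to 52539838, minus strand), was abundant in both groups. It had 240, 241.3 and 259.7 CPM in allograft replicates 1, 2 and 3, and 153.5, 152.4 and 158.1 CPM in isograft replicates 1, 2 and 3. Its rise was the smallest of the group, with a log2 fold change of 0.67 ± 0.07 (95% interval 0.53 to 0.82; edgeR adjusted p = 5.3e-08), yet the tight replicates kept the groups apart. Allograft replicate 1, the highest library for Egr1, Egr2, Egr3 and Nab2, was not the highest for Nab1, for which it was level with allograft replicate 2.

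Levels of different genes were compared per length, as TPM, counts over the exon length in the files, scaled to the same sum in each library. In allograft libraries Egr1 led with 224 ± 33.7 TPM, ahead of Egr2 with 97.6 ± 6.82 TPM and Egr3 with 73.1 ± 6.73 TPM (SD, n = 3 each). In isograft libraries the order of the EGR genes was another: Egr3 came first with 24.2 ± 0.527 TPM, then Egr1 with 20.9 ± 1.88 TPM and Egr2 with 16.7 ± 0.718 TPM. Neighbours in the isograft order were close, and Egr1 reached 23.1 TPM in isograft replicate 2, where Egr3 had 23.6 TPM. Nab1 stood at 196 ± 12.8 TPM in allograft and 144 ± 3.41 TPM in isograft libraries, and Nab2 at 109 ± 16.0 TPM in allograft and 47.8 ± 3.73 TPM in isograft libraries. In allograft libraries Nab1 and Egr1 were not apart beyond their spread, since Nab1 exceeded Egr1 in allograft replicate 3, with 210 against 201 TPM.

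The make-up of the EGR mRNA level therefore differed between the groups. Egr1 made up 56.7 ± 2.17% of the summed TPM of Egr1, Egr2 and Egr3 in allograft libraries and 33.8 ± 2.52% in isograft libraries, while Egr3 made up 18.5 ± 0.504% in allograft and 39.1 ± 1.44% in isograft libraries. The share of Egr2 overlapped between the groups, with 24.8 ± 1.66% in allograft and 27.0 ± 1.41% in isograft libraries. The summed EGR level was 395 ± 45.8 TPM in allograft and 61.8 ± 0.953 TPM in isograft libraries. Set over the summed NAB level it gave a ratio of 1.44, 1.24 and 1.21 in allograft replicates 1, 2 and 3, against 0.327, 0.327 and 0.311 in isograft replicates 1, 2 and 3. The ratio was below 1 in every isograft library. Whether it was above 1 in allograft libraries depended on how Nab2 was counted: with Nab2 set over its unshared exon bases alone, an alternative chosen after seeing the data, it was 1.11, 0.984 and 0.988 in allograft replicates 1, 2 and 3, against 0.280, 0.275 and 0.263 in isograft replicates 1, 2 and 3. By that measure Nab2 stood at 188 ± 27.7 TPM in allograft and 82.8 ± 6.46 TPM in isograft libraries. The groups did not overlap on either scale.

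**Figure D2:**
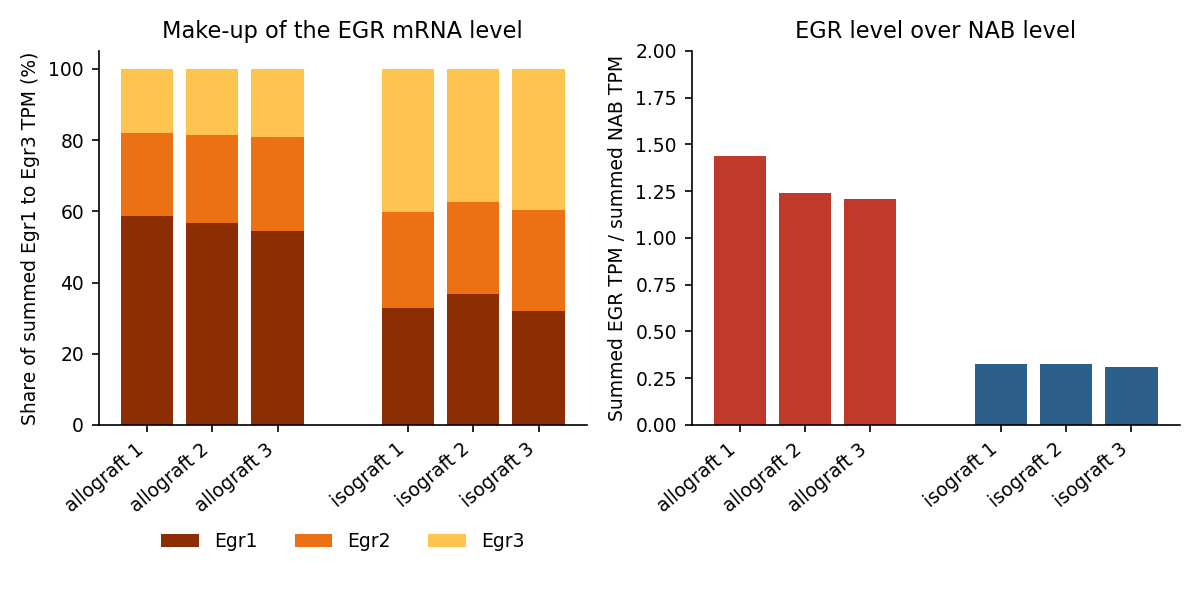
The left panel shows the share in percent of Egr1, Egr2 and Egr3 in their summed TPM for each library, and the right panel the summed TPM of the 3 EGR genes over that of Nab1 and Nab2, with allograft libraries left of isograft libraries. Egr1 takes 54.4% to 58.7% of the EGR level in allograft libraries and 31.9% to 36.7% in isograft libraries, and the EGR to NAB ratio, with Nab2 over all its exon bases, is 1.21 to 1.44 in allograft and 0.311 to 0.327 in isograft libraries.

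Ratios of counts between 2 genes of the same library do not depend on scaling, and 7 were compared. The groups did not overlap in any of them. The 7 ratios share genes, so they are not independent, and their differences follow closely from the fold changes given above. How often ratios of other gene pairs failed to overlap was not examined. Egr3 over Egr1 was lower in allograft libraries by 1.82 on the log2 scale, Egr2 over Egr1 by 0.87 and Egr3 over Egr2 by 0.95, while Nab2 over Nab1 was higher by 0.74. The Egr3 over Egr2 ratio was the tightest difference among the EGR genes, at 0.01, -0.03 and -0.10 in allograft replicates 1, 2 and 3 and at 0.96, 0.92 and 0.84 in isograft replicates 1, 2 and 3. Each EGR gene was also higher relative to Nab2, Egr1 by 2.24, Egr2 by 1.36 and Egr3 by 0.41. Egr1 and Nab2 kept a nearly fixed ratio within the allograft group, at 1.67, 1.60 and 1.69 in replicates 1, 2 and 3, although both genes varied there. With 3 libraries against 3 the exact two-sided permutation test cannot go below p = 0.10, and all 7 ratios gave 0.10, before and after adjustment over the 7.

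**Figure D3:**
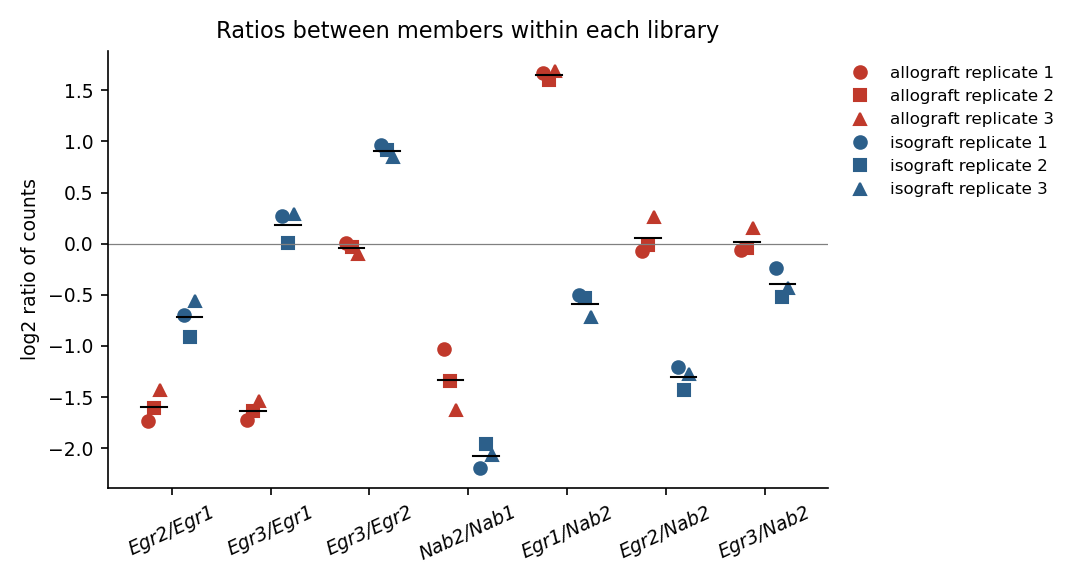
Log2 ratios of counts between pairs of the EGR and NAB genes within each library, with allograft libraries in red left of isograft libraries in blue and the group mean as a bar. The points of the 2 groups are apart in all 7 pairs, and the difference is largest for Egr1/Nab2, 2.24 higher in allograft libraries, and Egr3/Egr1, 1.82 lower.

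The cell content of the fraction bears on all of these levels. All 20 genes of a T cell identity list were present in every library, and they summed to 2566 to 2843 CPM in allograft and 3096 to 3318 CPM in isograft libraries. All 20 genes of a B cell list were present too, summing to 3171 to 3337 CPM in allograft and 3534 to 3798 CPM in isograft libraries, a ratio to the T cell sum of 1.17 to 1.26 in allograft and 1.12 to 1.23 in isograft libraries. A list of 12 myeloid genes summed to 82.8 to 93.7 CPM in allograft and 102.0 to 106.5 CPM in isograft libraries, and 1 or 2 of the 12 were at 0 in allograft and 0 or 1 in isograft libraries. Mpo, at 0 in all 3 allograft libraries, and S100a8 were too low to test. Of the 20 T cell identity genes, 6 were called higher, 10 lower and 4 not called, with a median log2 fold change of -0.22. Of the 20 B cell genes, 4 were called higher, 11 lower and 5 not called, with a median of -0.43. Over all 14926 genes tested, 28.7% were called higher and 29.1% lower, with a median of -0.01. Members of the T cell list went both ways, more of them down than up, and 5 are named here after their values were seen. Cd5, a receptor that dampens T cell receptor signals, had the largest rise of the list, 1.38 ± 0.08. Trac, the constant part of the receptor alpha chain, rose by 0.72 ± 0.08. The largest falls of the list were those of Ubash3a, at -2.33, Tcf7, at -1.72, and Cd247, at -1.35. Cd3e, a chain of CD3 itself, fell by 0.63 on the log2 scale, with 79.1 CPM in allograft and 122.6 CPM in isograft libraries. The B cell sum thus exceeded the T cell sum in every library of a fraction labelled as CD3+ T cells, and both sums were lower in allograft libraries. Their part in the EGR and NAB differences was not tested. B cells switch on EGR genes after receptor signals as well, and which cells carried the EGR and NAB transcripts was not tested. In a bulk fraction fewer cells of a type and less RNA per cell cannot be told apart. Scaled to the summed T cell list in place of TMM, the 5 log2 fold changes were 3.91, 3.03, 2.08, 1.67 and 0.93 for Egr1, Egr2, Egr3, Nab2 and Nab1, and scaled to the B cell list they were all positive and called too.

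Genes around the group were taken from lists chosen with earlier results of these data known. In the list of the Ras-ERK cascade and serum response factor, the input to EGR genes, 6 of 23 members rose, 7 fell and 10 were not called, with a median log2 fold change of 0.01, against -0.01 over all genes tested. These shares were near those over all genes, of which 28.7% were called higher and 29.1% lower, the background for the lists that follow as well. The split moved with scaling, as did that over all 14926 genes. With total counts 4 were higher and 11 lower, against 2973 and 6093 over all genes. Scaled to the T cell list 12 were higher and 4 lower, against 6037 and 2790 over all genes, and scaled to the B cell list 10 were higher and 4 lower, against 5506 and 3204. Ksr1, a scaffold of the cascade, rose by 1.03 ± 0.10 (SE), with 37.3 ± 3.64 CPM in allograft and 18.3 ± 0.998 CPM in isograft libraries. Rasgrp1, the exchange factor that links the T cell receptor to Ras, rose by 0.75 ± 0.08, and Map2k1, the kinase MEK1, by 0.67 ± 0.07. Mrtfa, a coactivator of serum response factor, fell by 0.86 on the log2 scale. Elk4, a ternary complex factor, was at -0.24 ± 0.07, a call that both cell list scalings ended, at 0.01 with the T cell list and -0.06 with the B cell list. Srf, named here after its values were seen, rose by 0.65 ± 0.12.

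Of 7 calcineurin and NFAT genes, 2 rose and 4 fell, with a median of -0.26; 1 rose and 5 fell with total counts, and 3 rose and 2 fell with the T cell list scaling. Nfatc1 rose by 1.04 ± 0.09, to 139.7 ± 17.6 CPM in allograft libraries against 67.8 ± 6.76 CPM in isograft libraries, whereas Nfatc2 fell by 0.95 and Nfatc3 by 0.68 on the log2 scale. The subunits of calcineurin showed small differences: Ppp3ca was at -0.45 ± 0.08, Ppp3cb at 0.27 ± 0.07 and Ppp3r1 at -0.26 ± 0.08, and Ppp3cc was not called. The calls of all 4 depended on scaling. Ppp3cc was called lower with total counts (-0.22, adjusted p = 0.033) and higher with the T cell list scaling (0.25, adjusted p = 0.031). The calls of Ppp3ca (-0.20, adjusted p = 0.073) and Ppp3r1 (-0.01, adjusted p = 0.96) ended with the T cell list scaling, and that of Ppp3cb (0.05, adjusted p = 0.58) with total counts. Ppp3r1 was also not called with the B cell list scaling (-0.08, adjusted p = 0.49) or without isograft replicate 3 (-0.23, adjusted p = 0.058).

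All 14 genes of the NuRD complex, through which NAB proteins act, were called, 9 higher and 5 lower, with a median of 0.31. Rbbp7, a histone-binding subunit, rose by 1.06 ± 0.08, to 783.7 ± 71.8 CPM in allograft libraries against 375.7 ± 23.8 CPM in isograft libraries, and the deacetylase gene Hdac2 rose by 0.69 ± 0.08. Mta3 fell by 0.96 and the methyl-DNA binding gene Mbd2 by 0.72 on the log2 scale. The NAB-binding remodeller gene Chd4 was at 0.34 ± 0.11 (adjusted p = 0.013) and its relative Chd3 fell by 0.48. With total counts 4 of the 14 were called higher, and Chd4 was not among them (0.12, adjusted p = 0.27). With each cell list scaling 9 were called higher and 3 lower. Without allograft replicate 2, isograft replicate 1 or isograft replicate 2, 8 were called higher and 4 lower. Mta1, named after its values were seen, was called higher in the reported fit with overlapping groups (edgeR adjusted p = 0.039). Of 4 EGR cofactor genes, the acetyltransferase genes Crebbp and Ep300 fell by 0.46 and 0.42 on the log2 scale, Ddx20 rose by 0.34 ± 0.08, and Hcfc1 was at 0.12 ± 0.08 (adjusted p = 0.22). The calls of Ddx20 (0.12, adjusted p = 0.23 with total counts) and Ep300 (-0.17, adjusted p = 0.11 with the T cell list scaling) depended on scaling. Hcfc1 was called higher with the T cell list scaling (0.37, adjusted p = 0.00036) and with the B cell list scaling (0.29, adjusted p = 0.0074).

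Among 22 genes known as EGR targets in T cells, 14 rose, 5 fell and 3 were not called, with a median of 1.29. Sema7a, a membrane semaphorin, had 167.2 ± 9.20 CPM in allograft and 12.5 ± 1.24 CPM in isograft libraries, a log2 fold change of 3.74 ± 0.09. Crtam, an adhesion receptor of activated T cells, rose by 3.91 ± 0.12, Icam1 by 2.61 ± 0.08 and Cd44 by 2.31 ± 0.08. The genes that fell included Dgka, a diacylglycerol kinase that dampens Ras signalling and is known as an EGR2 target in anergy, with 167.6 ± 35.0 CPM in allograft and 670.1 ± 35.6 CPM in isograft libraries. Cdkn1b, the cell cycle inhibitor p27, fell by 1.36 on the log2 scale. Of other members, named after their values were seen, the ubiquitin ligase gene Itch fell by 0.38 and the diacylglycerol kinase gene Dgkz by 0.54 on the log2 scale. The ubiquitin ligase gene Cblb was not called, at -0.13 ± 0.07 (adjusted p = 0.14). Tnfrsf9, the costimulatory receptor 4-1BB, rose by 2.64 ± 0.11, and Lag3, an inhibitory receptor, rose by 1.62 ± 0.28, at 3.51 CPM in allograft and 1.13 CPM in isograft libraries.

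Of 25 other immediate early genes 21 rose, 0 fell and 4 were not called, with a median of 1.60; with total counts 20 rose and 1 fell. The orphan receptor genes Nr4a1, Nr4a2 and Nr4a3 rose by 3.31 ± 0.08, 3.26 ± 0.11 and 3.07 ± 0.07, and Myc by 3.20 ± 0.09, so that Egr1, at 3.66 ± 0.12, stood above all 25 genes of that list, whose highest log2 fold change was that of Nr4a1. Jun rose by 1.84 ± 0.09, the same as Egr3 to 2 decimals, and Mcl1, the most abundant of those not called, was at -0.02 ± 0.07, but was called lower with total counts (-0.24, adjusted p = 0.0067) and higher with the T cell list scaling (0.24, adjusted p = 0.021).

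**Figure D4:**
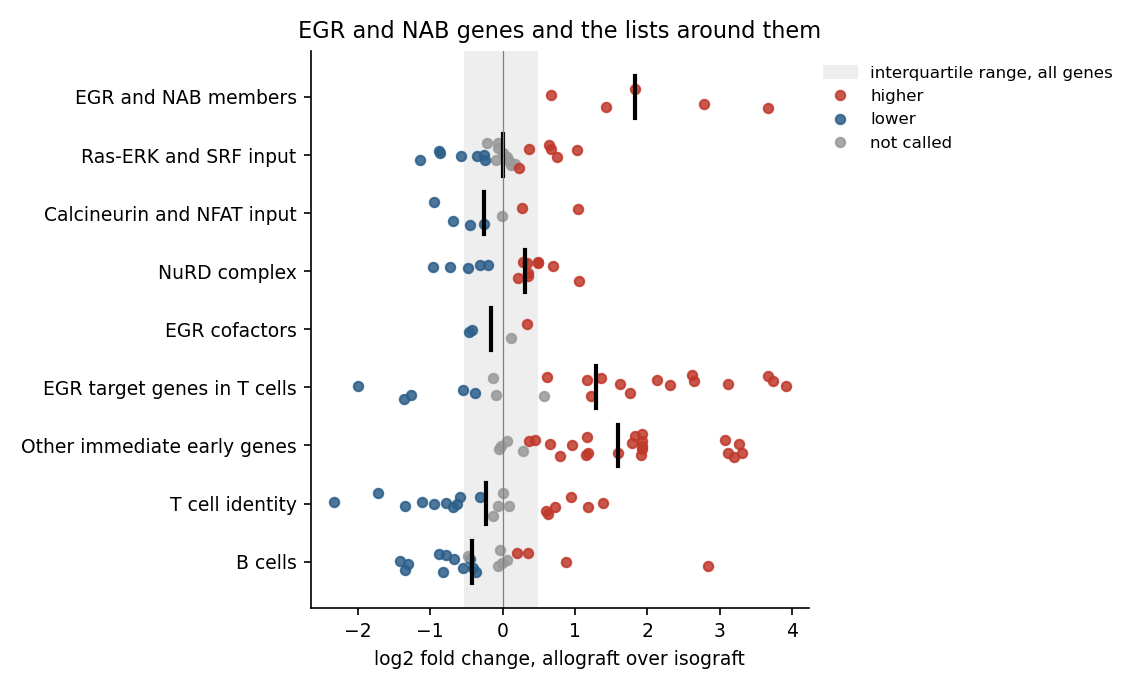
Log2 fold change, allograft over isograft, of each gene tested in 9 lists, coloured by its call (edgeR adjusted p under 0.05), with list medians as black bars and a grey band for the interquartile range of all genes tested. The EGR and NAB genes (median 1.84), their T cell target list (1.29) and the other immediate early genes (1.60) lie to the right. The Ras-ERK input (0.01), calcineurin and NFAT input (-0.26), NuRD (0.31) and cofactor (-0.15) lists have medians nearer 0. The T cell list (median -0.22) spreads from -2.33 to 1.38 and the B cell list (median -0.43) from -1.41 to 2.84.

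The genes whose pattern was most like that of each member were sought among 8813 genes with a mean of at least 5 CPM. The measure was the root mean square difference of centred log2 CPM over the 6 libraries, a description with no test. It largely picks genes with a fold change near that of the member. The neighbours of Egr3 named below had log2 fold changes of 1.91, 1.79 and 1.82, against 1.84 for Egr3. Those of Nab1 had 0.68, 0.68 and 0.70, against 0.67 for Nab1. Shared regulation was not tested. Nearest to Egr1 were Cdk5r1, an activator of the kinase CDK5 (difference 0.110), the survival gene Bcl2l1 (0.169) and Sema7a (0.183). Nearest to Egr2 were Rrp1b, a nucleolar protein gene (0.0872), the IgE receptor gene Fcer2a (0.0960) and the kinase gene Plk3 (0.101), and nearest to Egr3 were the kinase gene Map3k20 (0.0443), the phosphatase gene Dusp2 (0.0536) and the kinase gene Pim3 (0.0573). Nab2 was closest to Nol6, a gene of ribosome assembly (0.0471), the seryl-tRNA synthetase gene Sars (0.0574) and Riox1 (0.0586). Nab1 was closest to Rbm26 (0.0169), Sms-ps (0.0246), a pseudogene whose reads may be shared with its parent, and Vmp1, a gene of autophagy (0.0256). Fcer2a belongs to the B cell list, of which it had the highest log2 fold change, with 378 ± 22.6 CPM in allograft and 52.8 ± 0.951 CPM in isograft libraries. Cdk5r1 had 123.8 ± 9.15 CPM in allograft and 8.98 ± 1.13 CPM in isograft libraries.

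All 5 genes stayed higher in allograft libraries under each alternative tried. Over 17 alternative settings Egr1 ranged from 3.44 to 3.91 on the log2 scale, Egr2 from 2.56 to 3.03, Egr3 from 1.61 to 2.08, Nab2 from 1.20 to 1.67 and Nab1 from 0.45 to 0.93, each called higher in all 17. The lowest values came from total counts, which moved the median of all genes to -0.24, and the highest from the T cell list scaling, which moved it to 0.24. The order of the 5 folds was the same in the reported fit and in each of these 2 scalings. A scaling moves all genes by nearly the same amount, so it could hardly have changed that order.

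**Figure D5:**
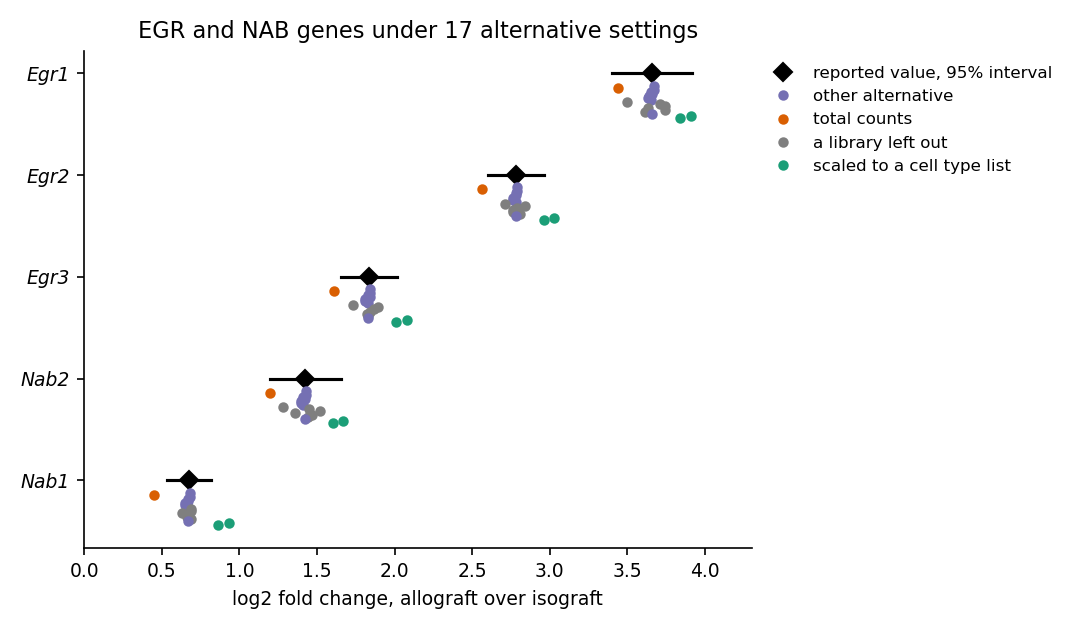
Log2 fold change of each EGR and NAB gene, allograft over isograft, as reported (diamond, with its 95% interval) and under 17 alternative settings (points, spread downwards for legibility). Points scaled by total counts lie lowest, points scaled to a cell type list highest, and all lie above 0.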

How the data were processed

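RNA from 6 libraries, 3 per group, was sequenced, and the authors deposited 1 table of counts per library. Per the file headers, the authors counted read pairs over Ensembl release 104 exons (GRCm39) with featureCounts 1.6.0, summed per gene without normalization, after alignment with HISAT (version not stated). GRCm38 and mm10 are the builds listed in the submitters' processing notes. The intervals of Egr1, Egr2, Egr3 and Nab2 do not overlap between GRCm38 and GRCm39. Reads of these genes aligned to GRCm38 would therefore fall outside the GRCm39 intervals that were counted. Which build the reads were aligned to was not tested. Per the file headers, the recorded command sets no strand or multi-mapping option. By that tool's defaults, fragments over exons of several genes are left out, which lowers Nab2.

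The other column used, the exon length in bases, was deposited with the counts by the authors. Symbols were matched for 52083 of 55416 genes. Totals ran from 30066137 to 37821738 counts, and filterByExpr kept 14926 genes holding 99.92% of the counts. edgeR 4.0.16 (R 4.3.3) compared the groups with TMM scaling, a robust quasi-likelihood test and Benjamini-Hochberg adjustment over all genes tested. The SE is the log2 fold change over the square root of F, and 95% intervals use the matching t quantile. limma 3.58.1 and DESeq2 1.42.0 served alternatives, which also covered other scalings, filters, the replicate number as a block and each library left out. The procedure was tested on simulated data in which few genes changed, in either direction. Unlike here, most genes did not move there, so that test does not bear on the choice of scaling. Each library was counted as 1 sample. Within groups the chi-square per degree of freedom between libraries was 10.3 to 21.9, above sampling noise. This does not show that the libraries are separate mice. TPM used all genes. Promoter sequences are from RefSeq (GRCm38.p6), the Nab2 gene interval given with them is GRCm38, and other coordinates are GRCm39. Figures were drawn with matplotlib 3.10.9.

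The genes, lists and tests were chosen with earlier results of these data known. Named genes are all 5 members, Egr4 and Wt1. Lists of 10 or more genes add the 4 with the smallest p and the 2 most abundant of the rest, shorter lists add all their tested genes, and 3 neighbours by pattern are added per member. Other genes are marked as named after their values were seen. Some genes that the rule names are not reported here.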

Additional observations from a re-analysis of the deposited data

How the results depend on the processing

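All 5 EGR and NAB genes were called higher in each of the 17 alternatives, with the largest adjusted p for any of them at 6.1e-06 (Nab1). With single libraries left out, their log2 fold changes ranged from 3.50 to 3.74 (Egr1), 2.71 to 2.84 (Egr2), 1.73 to 1.89 (Egr3), 1.28 to 1.52 (Nab2) and 0.63 to 0.69 (Nab1). The balance over all genes depended on scaling: 4283 genes were called higher and 4349 lower with TMM, 2973 and 6093 with total counts, 6037 and 2790 scaled to the T cell list, and 5506 and 3204 scaled to the B cell list. Directions reversed for genes near 0, and some of these were called under another scaling. Ppp3cc, reported at -0.00, was at 0 with RLE scaling and with DESeq2, ranged from -0.09 (without allograft replicate 3) to 0.05 (without allograft replicate 1) with single libraries left out, and was at -0.22 with total counts (called lower), 0.25 with the T cell list (called higher) and 0.18 with the B cell list. With total counts Hcfc1 was at -0.10 and Ms4a1 at -0.02, and Hcfc1 was called higher with the T cell list (0.37) and the B cell list (0.29). Mcl1 ranged from -0.08 without allograft replicate 3 to 0.02 without allograft replicate 2, and was at -0.24 with total counts (called lower), 0.24 with the T cell list (called higher) and 0.17 with the B cell list. Elk4 was at 0.01 with the T cell list. The cause was not tested beyond the scaling itself. Replicate numbers did not pair the libraries: same-numbered libraries deviated together with correlations of -0.0628, 0.00293 and -0.0338 across genes, and no library correlated best with its own number. With the replicate block 4064 genes were called higher and 4152 lower, and the 5 genes were called as before. The summed EGR over summed NAB ratio averaged 1.03 in allograft and 0.273 in isograft libraries with Nab2 over its unshared exon bases, an alternative chosen after seeing the data, against 1.30 and 0.322 over all its bases. Reading 1 strand of the promoters left 2 of the 3 EGR sites of Nab1. Depth was ample for the 5 genes, with at least 481 counts in any library, and limits Egr4 and Wt1.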
